A study of Mus musculus with 2 samples.

Results

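The genes described here are 9 markers of macrophages in brown adipose tissue: the complement genes C1qa, C1qb and C1qc, the lysozyme genes Lyz1 and Lyz2, and Cd68, Csf1r, Mrc1 and Cd14. They were taken as every row of the deposited table that carries one of these symbols, which gave 10 transcript rows, and the table held 10761 usable gene symbols in all. Male C57BL6/J mice 8 to 12 weeks of age ate chow that drew 60% of its calories from fat over 10 days. The HFD control group had the diet alone, and the SML group also had intraperitoneal SML at a dose of 5 mg/kg. Sesaminol is the compound in the title of the series, and the labels write SML. Each group was 1 poly(A) RNA library of brown adipose tissue, with 11999677 fragments for HFD control and 8503334 for SML in the table. The sources used here do not give the number of animals behind a library, or say whether control mice were injected with a vehicle. With 1 library per group no difference below has a replicate check: each compares 2 libraries, not 2 conditions, and intervals cover counting error only.

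Macrophages are the resident phagocytes of fat depots and clear dying cells, debris and microbes. C1q is the recognition molecule of the classical complement pathway, built from A, B and C chains in equal numbers, and tissue macrophages are a main source of it. Lysozyme breaks bacterial cell walls, CD68 is a glycoprotein of lysosomes, the CSF1 receptor carries the survival signal of the lineage, the mannose receptor MRC1 takes up glycoproteins, and CD14 is the co-receptor that presents bacterial lipopolysaccharide to TLR4.

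The 3 C1q genes lie side by side on the minus strand of chromosome 4 of mm10, within 18700 bp. C1qb spans chr4:136880145-136886177, C1qc chr4:136889802-136892914 and C1qa chr4:136895916-136898844, with gaps of 3624 and 3001 bp, and each has 3 exons in GENCODE M21. The upstream sequences of C1qb and C1qc are shown because these neighbours differed between the libraries in the same direction. They come from the RefSeq promoter table for GRCm38.p6, with bases that GENCODE places in a transcript left out, and run 5′ to 3′ on the minus strand. Capitals mark GAGGAA or its reverse complement TTCCTC, the purine-rich core bound by ETS factors such as PU.1 of myeloid cells.
C1qb, chr4:136886201-136886450: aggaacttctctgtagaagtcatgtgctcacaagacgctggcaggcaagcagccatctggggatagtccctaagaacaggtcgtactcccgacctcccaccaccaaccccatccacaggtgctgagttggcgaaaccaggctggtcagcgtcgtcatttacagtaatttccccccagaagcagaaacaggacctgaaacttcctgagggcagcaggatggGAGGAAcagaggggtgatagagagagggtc
C1qc, chr4:136893066-136893164: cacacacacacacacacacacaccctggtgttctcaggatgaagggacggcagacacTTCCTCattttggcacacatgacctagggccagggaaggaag
In the 250 bases before the RefSeq start, GAGGAA occurred on either strand in 4 of the 6 member promoters examined: C1qb, C1qc, Cd68 and Mrc1, with 3 matches in Mrc1 and 1 in each of the others. Lyz1 and Lyz2 had 0. The same letters occurred in 23.3% of 32851 promoters of that length. The longer form GAGGAAGT, which overlaps the shorter one, occurred in C1qc and in 2.44% of promoters. The interferon-stimulated response element, found in 2.98% of promoters, and the TATA box TATAAA, found in 12.4%, had 0 matches in these 6. The AP-1 site TGANTCA, found in 6.75%, had 2 matches, both in Cd68. A match describes the letters and is not a measured binding site.

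The lysozyme genes also neighbour each other, Lyz2 at chr10:117277541-117282272 and Lyz1 at chr10:117287795-117292868, both on the minus strand with 4 exons and 5522 bp apart. Their coding sequences matter here because fragments can fit both genes. The 447 coding bases of the GENCODE M21 transcripts differed at 22 positions, an identity of 95.1%, and 80 of 398 stretches of 50 bases (20.1%) were the same in both. The first 150 coding bases hold 14 of the differences and are shown 5′ to 3′ with differing bases in capitals.
Lyz1: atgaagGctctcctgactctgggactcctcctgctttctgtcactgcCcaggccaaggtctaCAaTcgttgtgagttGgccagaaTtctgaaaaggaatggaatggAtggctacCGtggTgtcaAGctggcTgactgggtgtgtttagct
Lyz2: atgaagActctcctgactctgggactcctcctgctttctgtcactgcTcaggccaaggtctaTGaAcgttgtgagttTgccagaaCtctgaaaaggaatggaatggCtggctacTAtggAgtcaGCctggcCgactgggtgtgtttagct
The sources used here do not say how the authors divided fragments that fit both genes, so the separate values of Lyz1 and Lyz2 are uncertain and their sum is given beside them.

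Abundance is given as FPKM, the number of fragments relative to transcript length and library size, so that levels of different genes can be compared. Fold differences are ratios of the deposited scaled counts with a 95% interval, and differences are log2(FPKM + 1) in SML minus HFD control. Without a test, a difference of 1.5-fold or more on this scale is called higher or lower in SML. By this rule 5 of the 9 genes were lower (C1qa, C1qb, C1qc, Lyz1 and Cd68), 1 was higher (Cd14) and 3 were neither (Lyz2, Csf1r and Mrc1). Of 9870 genes whose mean FPKM reached 1, 5.74% were lower and 5.45% higher, and the median difference was 0 against -0.70 for the 9 genes. All 9 genes passed this filter. In bulk tissue a smaller number of macrophages and less of these RNAs per macrophage cannot be told apart.

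Some calls ended when a joint trend on GC content and transcript length was taken out, and the parts of GC content and of length in this were not separated. Across genes the difference moved with transcript GC content (Spearman rho -0.32 over 9821 genes, which are not independent replicates). The C1q transcripts hold 57.4% to 59.5% GC, above the upper quartile of 54.9% of the genes tested, and are 1040 to 1203 bases long. Cd68, at 52.9%, lies below that quartile and is 1230 bases long, where the median gene has 3080. With that joint trend taken out, C1qa (-0.57), C1qb (-0.54) and Cd68 (-0.53) came to lie just inside the size rule, and 2 of the 9 genes were lower (C1qc at -0.74 and Lyz1 at -1.2) where 4.78% of all genes were. Cd14 stayed higher at 0.86, where 4.32% of all genes were higher. This is called the GC and length adjustment below.

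C1q genes were abundant in the HFD control library and lower in the SML library. C1qa had 84.6 FPKM in HFD control (counting interval 79.5 to 90.0) against 49.99 in SML (45.4 to 54.9), a 1.70-fold lower scaled count (1.52 to 1.91) from 1012 and 438 fragments. C1qb had 96.2 FPKM in HFD control against 57.7 in SML, 1.68-fold lower (1.51 to 1.87) from 1125 and 494 fragments. C1qc had 62.6 FPKM in HFD control against 32.6 in SML, 1.93-fold lower (1.67 to 2.22) from 725 and 277 fragments. In each of the 3 genes the intervals of the libraries were apart. Summed, the C1q genes went from 243 to 140 FPKM, a 1.74-fold lower scaled count (1.63 to 1.86).

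The proportions among the C1q chains were close in both libraries. C1qb was listed at 1.14 times the FPKM of C1qa in HFD control and 1.15 times in SML. C1qa was listed at 1.35 times the FPKM of C1qc in HFD control and 1.53 times in SML. The ratio of SML to HFD control in C1qa was 0.986 times that in C1qb (0.842 to 1.15) and 1.13 times that in C1qc (0.944 to 1.36). C1qb against C1qc gave 1.15 (0.962 to 1.37). These 3 intervals include 1, so a difference between the chains was not detectable at this depth, and the C1qc interval still allows a ratio 1.36 times lower than that of C1qa.

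Lyz2, the lysozyme of macrophages and neutrophils, was the most abundant of the 9 genes in both libraries. It had 165 FPKM in HFD control (158 to 173) against 112 in SML (105 to 119), a 1.49-fold lower scaled count (1.38 to 1.61) from 1920 and 950 fragments. Its intervals were apart, and its difference of -0.56 lay just inside the size rule of 0.58. Lyz1, the lysozyme best known from Paneth cells of the gut, had 26.1 FPKM in HFD control (23.5 to 28.9) against 9.96 in SML (8.15 to 12.1), 2.63-fold lower (2.11 to 3.30) from 375 and 105 fragments. It had the lowest difference of the 9 genes, at -1.30. Lyz1 was listed at 0.158 times the FPKM of Lyz2 in HFD control and 0.0893 times in SML, and the ratio of SML to HFD control in Lyz1 was 0.566 times that in Lyz2 (0.445 to 0.715). The sum of both lysozymes went from 191 to 121 FPKM with a difference of -0.65, which was lower by the size rule. Of 9 Paneth and intestinal epithelial markers Lyz1 was the 1 with a row, so the other 8, such as Defa24 and Vil1, gave no value.

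**Figure D1:**
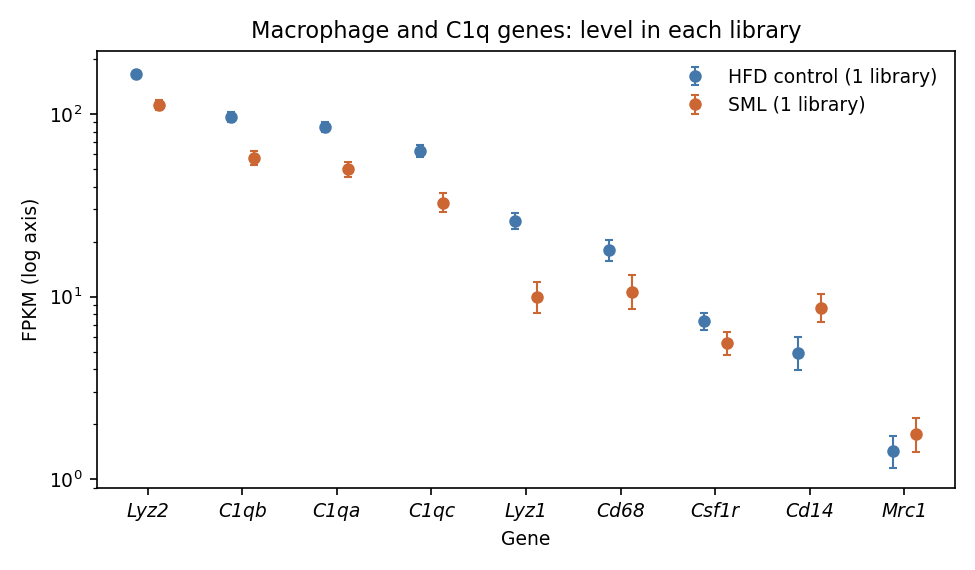
FPKM of the 9 genes (vertical log axis) in the HFD control library (blue) and the SML library (orange), ordered by the HFD control level. Points are single libraries and bars are 95% Poisson intervals for counting error: Lyz2 is highest in both libraries at 165 and 112 FPKM, and Cd14 lies higher in SML at 8.67 against 4.89 FPKM.

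Cd68 was the 1 gene of the set with more than 1 transcript row. It lies at chr11:69664213-69666170 on the minus strand with 6 exons. Its first row, TCONS_00005569, had 11.7 FPKM in HFD control against 6.53 in SML, 1.79-fold lower (1.34 to 2.41) from 165 and 68 fragments. Its second row, TCONS_00005570, had 6.31 FPKM in HFD control against 4.12 in SML, with a ratio of 0.641 (0.382 to 1.05) from 53 and 25 fragments. The first row held 64.9% of the FPKM of the gene in HFD control and 61.3% in SML. Summed, Cd68 went from 18.0 to 10.7 FPKM, 1.73-fold lower (1.35 to 2.22).

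The receptor genes differed among themselves. Csf1r, which spans chr18:61105572-61131139 with 21 exons, had 7.31 FPKM in HFD control (6.57 to 8.11) against 5.55 in SML (4.81 to 6.37). Its ratio was 0.759 (0.635 to 0.905) from 358 and 200 fragments, below 1 and inside the size rule. Mrc1, at chr2:14229414-14332023 with 30 exons, was the least abundant gene of the set, with 1.42 FPKM in HFD control (1.15 to 1.73) against 1.76 in SML (1.41 to 2.17). Its ratio of 1.23 (0.913 to 1.66) from 97 and 88 fragments includes 1, and its difference of 0.19 was 0.02 after the GC and length adjustment. Cd14, at chr18:36725064-36726815 with 2 exons, had 4.89 FPKM in HFD control (3.96 to 5.97) against 8.67 in SML (7.22 to 10.3). Its scaled count was 1.77-fold higher (1.35 to 2.33) from 96 and 125 fragments, and its intervals were apart. In GENCODE M21 the microRNA genes Mir6983 and Mir511 lie within Csf1r and Mrc1, and the other 7 genes overlap no further gene.

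**Figure D2:**
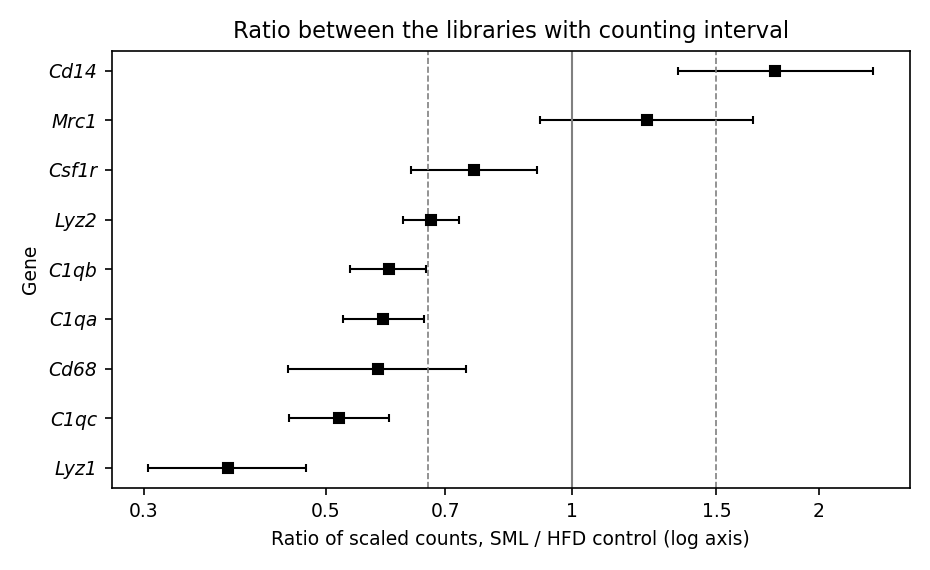
Ratio of scaled counts, SML over HFD control (horizontal log axis), for each of the 9 genes, with bars for the 95% exact conditional binomial interval on fragments. The solid line marks a ratio of 1 and the dashed lines 1.5-fold: Lyz1 is lowest at 0.380, Cd14 highest at 1.77, and the interval of Mrc1 includes 1.

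Judged by counting error only, the 9 genes did not share 1 common ratio. The counting interval of the ratio lay below 1 in 7 of 9 genes, where it did in 23.5% of all genes tested, and above 1 in 1, where it did in 25.1%. In 36 pairs of members the ratio of one gene to that of the other had an interval that excluded 1 in 24, without adjustment for the number of pairs. Lyz1 differed in this way from the other 8 genes, Cd14 and Mrc1 each from 7, and Csf1r from 6. The pairs were not recomputed with the GC and length adjustment, and those of Lyz1 rest on its uncertain division from Lyz2. Mrc1 and Cd14, the 2 genes with ratios above 1, gave 0.697 against each other (0.462 to 1.05), so a difference between them was not detectable at this depth. Cd68 gave 1.01 for C1qa against it (0.771 to 1.34) and 0.764 for its own ratio against that of Csf1r (0.560 to 1.04).

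The order of levels in HFD control was Lyz2, C1qb, C1qa, C1qc, Lyz1, Cd68, Csf1r, Cd14 and Mrc1, and no neighbours in this order had overlapping counting intervals. In SML Cd68 stood above Lyz1 and Cd14 above Csf1r. There the intervals overlapped between C1qb and C1qa, between Cd68 and Lyz1, and between Lyz1 and Cd14. The highest level was 116 times the lowest in HFD control and 63.4 times in SML. Together the 9 genes summed to 466 FPKM in HFD control and 288 in SML, which is 0.0558% and 0.0366% of the summed FPKM of each library.

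**Figure D3:**
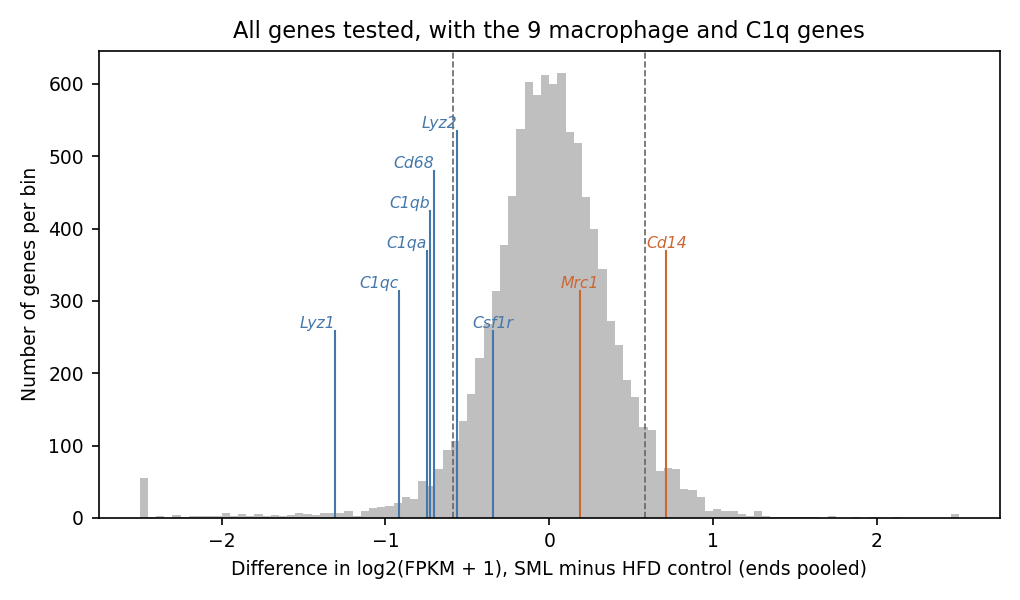
Number of genes (vertical axis) by difference in log2(FPKM + 1), SML minus HFD control (horizontal axis), for all 9870 genes tested in grey, with values beyond the ends pooled in the outer bins. Vertical lines mark the 9 genes and dashed lines the 1.5-fold rule: Lyz1, C1qc, C1qa, C1qb and Cd68 lie beyond the left dashed line and Cd14 beyond the right one.

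Other macrophage and myeloid genes are given from lists, which are described by counts and medians and not tested. Apart from the 9 genes the macrophage and monocyte list had 9 further genes measured, of which 4 were lower, 0 higher and 5 neither, with a median of -0.48. The 5 neither are named after their values were seen. Ms4a6c (ratio 1.27, 0.748 to 2.16) and Cybb (1.33, 0.899 to 1.98) had ratios above 1. Ccr2 (0.880), Fcgr1 (0.785) and Ms4a7 (0.636) had ratios below 1. The intervals of all 5 included 1. Lgals3, the galectin of phagocytes, went from 37.9 to 17.6 FPKM (2.16-fold lower, 1.84 to 2.54), and Aif1, a calcium-binding protein of macrophages, from 11.1 to 5.04 (2.21-fold lower, 1.48 to 3.36). Adgre1, which encodes the F4/80 antigen, went from 4.09 to 2.24 FPKM (1.82-fold lower, 1.37 to 2.46), and Mpeg1, a pore-forming protein of macrophages, from 6.25 to 3.73 (1.68-fold lower, 1.38 to 2.04). Defining macrophage markers were thus measured in both libraries, while Mertk, Cx3cr1, Cd163 and Itgam had no row. With all 17 measured genes of the list 8 were lower and 1 higher (median -0.56), or 6 lower after the GC and length adjustment.

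Of genes shared by leukocytes, 3 of 13 were lower and 0 higher, with a median of -0.43. Fcer1g, the signalling chain of antibody receptors, went from 57.0 to 30.1 FPKM (1.91-fold lower, 1.57 to 2.34). Cyba, a subunit of the phagocyte oxidase, went from 57.5 to 31.9 FPKM (1.81-fold lower, 1.51 to 2.16), and Cd52, a leukocyte surface glycoprotein, from 85.0 to 55.2 (1.56-fold lower, 1.30 to 1.88).

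Resident and alternatively activated macrophage genes held both directions, with 5 of 13 lower, 1 higher and a median of -0.27. The higher genes numbered 3 with count columns and 2 with a pseudocount of 0.1 or the highest transcript. Igf1, a growth factor chosen after its values were seen, had 4.48 and 5.31 FPKM but a count ratio of 2.10 (1.70 to 2.60). Retnla, a secreted protein of alternatively activated macrophages that fat tissue also expresses, went from 117 to 32.4 FPKM (ratio 0.276, 0.227 to 0.333). The chemokine genes Ccl8 (38.5 against 14.7 FPKM; 2.65-fold lower, 1.91 to 3.74) and Pf4 (28.8 against 12.9 FPKM; 2.25-fold lower, 1.63 to 3.15) were lower too. Selenop, the selenium carrier, listed as Sepp1, was higher at 211 and 357 FPKM (ratio 1.69, 1.63 to 1.76). Mgst1, a glutathione transferase and the most abundant of the list, stood at 1005 and 970 FPKM. Folr2, a folate receptor of resident macrophages that was chosen after its values were seen, stood at 6.28 and 6.06 FPKM, beside Mrc1 at 1.42 and 1.76.

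Lipid-associated and inflammatory macrophage genes had 4 of 15 lower, 1 higher and a median of -0.38. Besides Lgals3, Nos2, the inducible nitric oxide synthase, went from 3.13 to 1.32 FPKM (2.37-fold lower, 1.71 to 3.34). Spp1, which encodes osteopontin, went from 1.55 to 0.58 FPKM on 25 and 7 fragments. Lpl, the higher gene, and Fabp4, the most abundant at 30001 and 26726 FPKM, are also genes of adipocytes. Trem2, a receptor of lipid-associated macrophages chosen after its values were seen, stood at 2.73 and 2.64 FPKM.

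Phagocytic and scavenger receptor genes had 4 of 20 lower, 0 higher and a median of -0.15, or 2 lower after the GC and length adjustment. The lectin gene Clec4a2 went from 1.8 to 0.55 FPKM (3.37-fold lower, 1.78 to 6.92), the lectin gene Mgl2 from 10.7 to 5.85 (1.84-fold lower, 1.41 to 2.42), and Mfge8, a bridge to dying cells, from 116 to 73.3 (1.59-fold lower, 1.49 to 1.69). Cd36, a fatty acid and scavenger receptor of adipocytes as well, was the most abundant at 460 and 486 FPKM. Lysosomal genes, to which Cd68 belongs by location, had 1 of 23 lower, 0 higher and a median of -0.05. The lower gene was Ctss, the cathepsin of antigen-presenting cells, at 33.3 and 17.4 FPKM (1.92-fold lower, 1.63 to 2.28), while Ctsd, the most abundant cathepsin, stood at 1236 and 1221 FPKM.

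Most other complement genes lay inside the size rule. In the classical pathway list 1 of 6 measured genes was lower and 0 higher, with a median of -0.28. C4b, the substrate of activated C1, was the lower gene at 10.3 and 6.26 FPKM (1.65-fold lower, 1.44 to 1.88), and after the GC and length adjustment 0 were lower. The proteases that join C1q in the C1 complex, chosen after their values were seen, stood at 4.82 and 4.25 FPKM for C1ra and at 13.4 and 9.74 FPKM for C1s1 (ratio 0.721, 0.618 to 0.840). C1qbp, a mitochondrial protein that binds C1q and the most abundant of the list, stood at 155 and 162 FPKM.

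Among C3, the alternative pathway and terminal components 1 of 5 was lower and 0 higher, with a median of -0.05. Cfb, factor B, went from 5.75 to 2.68 FPKM (2.15-fold lower, 1.62 to 2.89). Cfd, which encodes adipsin of adipocytes, was the most abundant at 3305 and 3343 FPKM, a ratio of 1.01 (0.990 to 1.02). C3, chosen after its values were seen, stood at 136 and 161 FPKM. Complement regulators and receptors had 3 of 11 lower and 1 higher, with a median of -0.19. Vtn, vitronectin, went from 13.3 to 5.52 FPKM (2.42-fold lower, 1.89 to 3.13). Itgb2, the shared chain of the leukocyte integrins, went from 4.36 to 2.11 FPKM (2.07-fold lower, 1.52 to 2.88), and C5ar1, the receptor of C5a, from 1.8 to 0.85 (ratio 0.469, 0.263 to 0.803). Cd55, which limits complement activation on cells, was higher at 0.77 and 2.06 FPKM, and Calr, a C1q-binding chaperone, stood at 206 and 209 FPKM.

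**Figure D4:**
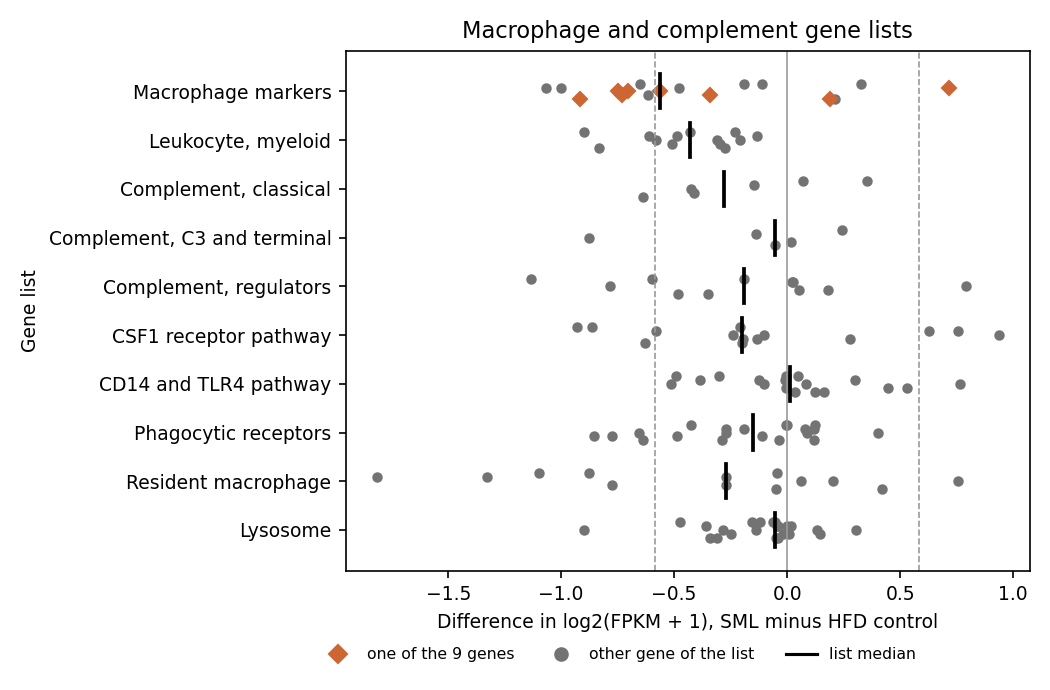
Difference in log2(FPKM + 1), SML minus HFD control (horizontal axis), for each measured gene of 10 macrophage and complement lists (rows). Orange diamonds are 8 of the 9 genes in the marker list, grey circles are other genes, black bars are list medians and dashed lines the 1.5-fold rule: the medians run from -0.56 for macrophage markers to 0.01 for the CD14 and TLR4 pathway.

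Genes around the CSF1 receptor were split. Of 14 measured, 3 were higher, 3 lower and 8 neither, with a median of -0.20. Maf, a transcription factor of mature macrophages, was higher at 0.74 and 1.69 FPKM (ratio 2.28, 1.46 to 3.59). Cebpb, which adipocytes share, was higher at 135 and 228 FPKM. Irf8, a transcription factor of monocytes and dendritic cells, was lower at 3.91 and 1.58 FPKM (2.48-fold, 1.74 to 3.60), and so was Il34, the second ligand of the receptor, at 4.98 and 2.87 FPKM (ratio 0.580, 0.398 to 0.834). Dok1, an adaptor protein, was lower by FPKM at 2.09 and 0.70, but its count ratio of 0.664 had an interval of 0.380 to 1.13. Csf1, the first ligand, chosen after its values were seen, stood at 3.38 and 3.08 FPKM, and Cebpa, the most abundant, at 313 and 271. After the GC and length adjustment 2 were higher and 2 lower.

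Most genes of the pathway that CD14 serves lay inside the size rule. Of 18 measured, 1 was higher and 0 lower, with a median of 0.01. With a pseudocount of 0.1 or with count columns 2 were higher and 2 lower. Without the filter 2 were also higher and 2 lower, but the lower genes were others, Tlr4 and Traf6. Both had an SML FPKM listed at 0, with count ratios of 1.05 (0.591 to 1.85) and 1.31 (0.906 to 1.91). After the GC and length adjustment, or by the highest transcript, 2 were higher and 0 lower. Ly96, which encodes the MD-2 partner of TLR4, was the higher gene at 2.32 and 4.65 FPKM, on 13 and 19 fragments with a ratio of 1.99 whose interval (0.93 to 4.37) includes 1. Rela, a subunit of NF-kappaB and the most abundant of the list, stood at 22.4 and 20.8 FPKM.

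Markers of other cell types also differed between these 2 libraries, and their part in the values above was not tested. The summed FPKM of 8 dendritic cell markers with a row went from 1272 to 594, with 5 of 7 measured lower and 0 higher (median -1.02), and with Ccr7 listed at 0 in both. Most of this sum came from antigen presentation genes that macrophages and B cells share: Cd74 at 550.4 and 271 FPKM, H2-Aa at 286 and 134, H2-Ab1 at 258 and 103, and H2-Eb1 at 171 and 80.6. The transcription factor genes Zbtb46, at 1.62 and 1.67 FPKM, and Irf4, at 1.07 and 1.18, were neither. Batf3, also a transcription factor gene, was lower at 3.55 and 1.94 FPKM on 25 and 10 fragments. Its count ratio of 0.543 had an interval (0.233 to 1.17) that includes 1. The sum of 8 erythroid markers went from 3757 to 1880 FPKM with 6 of 8 lower, that of 14 endothelial markers from 350.0 to 235 with 3 of 14 lower, and that of 16 skeletal muscle markers from 4377 to 415 with 15 of 15 measured lower. In these 3 lists 0 were higher. After the GC and length adjustment 2 erythroid markers were lower. With count columns or a pseudocount of 0.1, 1 erythroid and 1 endothelial marker were higher, and by the highest transcript 2 endothelial markers were. Fibroblast and progenitor markers had 1 of 10 lower (2 or 3 under 4 of the other settings) and 1 higher, and brown adipocyte markers 2 of 13 higher and 0 lower. With count columns 1 brown adipocyte marker was lower. Without the filter 1 was lower, Prdm16, at 1.42 and 0.41 FPKM (ratio 0.289, 0.192 to 0.423).

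The other leukocyte lists rested on few genes. Of 7 T and NK cell markers 0 were higher (1 with count columns or a pseudocount of 0.1) and 0 lower, and of 5 mast cell and eosinophil markers 2 were higher (Cpa3 and Tpsb2) and 0 lower. Of 3 B and plasma cell markers 1 was lower, Jchain at 3.61 and 0.75 FPKM, and 0 higher. Without the filter 2 were lower, as Cd79a then counted at 1.64 and 0.27 FPKM. Cd79a had 25 and 3 fragments (ratio 0.163, 0.0315 to 0.534). Neutrophils also make Lyz2: of 15 neutrophil markers 4 had a row, their sum was 8.63 FPKM in HFD control and 9.85 in SML, and 1 of 3 measured was higher, S100a8 on 3 and 8 fragments. Of 8 lymphatic endothelial markers, cells that can carry Mrc1, Flt4 was the 1 with a row, at 1.19 and 0.82 FPKM.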

How the data were processed

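The table of 14189 transcripts gave FPKM and a count column for each library. FPKM was computed by the authors, with CASAVA 1.8 and Cufflinks on mm10 named in the submitters' processing notes. Aligner, annotation release and filters: not given in the sources used here. As deposited, the count columns are a scaled signal: low values of symbols with 1 row moved in steps of 0.637 (HFD control) and 0.866 (SML), taken as 1 fragment, and 91.4% of 509 and 90.6% of 724 values up to 20 steps were whole within 0.1. Fragment numbers are scaled counts divided by the step. Start coordinates are printed 1-based, 1 above the table's.

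Rows were summed per symbol, leaving out 17 symbols turned into dates. Intervals are exact (conditional binomial for ratios, Poisson for levels, 95%) and do not cover spread between animals or PCR duplicates. Python 3.11.15 and SciPy 1.17.1 were used. The rule and intervals were run on simulated fragments with counting error only, which cannot show how they fare with spread between animals. The GC and length trend was a quadratic least squares fit on the longest GENCODE M21 transcript. The genes and 23 lists were chosen with earlier results of these data known. Named genes were the 9 genes and, per list, up to 3 largest called differences each way and the most abundant gene; Mpeg1 was added after its values were seen, and some genes of the lists are not reported here by name. Cell type lists are given by counts and sums. RefSeq promoters were used for 6 of the 9 genes; those of C1qa, Csf1r and Cd14 were not analysed here. Alternatives are given in the closing section.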

Additional observations from a re-analysis of the deposited data

How the results depend on the processing

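The 9 genes kept their direction in 54 of 54 values recomputed over 6 settings. These were the pseudocount, count columns, highest transcript, 2 scalings, and a GC and length adjustment. Part of this count was fixed in advance. A pseudocount cannot change a direction, and the highest transcript is the only row in 8 of the 9 genes. The 2 scalings put the median difference of all genes at 0.05 and 0.002, against 0. C1qa and C1qb moved beyond their counting interval under the GC and length adjustment. The count of lower genes among the 9 went from 5 to 2 under the GC and length adjustment and to 1 under a 2-fold rule, where 0 were higher; the cause of the first shift was not tested. It was 5, with 1 higher, under the other settings, including the lysozymes summed. Over all genes the 538 higher became 847 with a pseudocount of 0.1, 883 with count columns, 319 where mean FPKM reached 5 and 66 under a 2-fold rule. The 567 lower became 831 with a pseudocount of 0.1 and 818 with count columns. They became 1115 without a filter, 305 where mean FPKM reached 5 and 194 under a 2-fold rule. The 2 Cd68 rows, Mrc1 and Cd14 rest on 25 to 165 fragments a library, which limits their precision. No paired analysis was possible because each group is 1 library, and for the same reason no library could be left out.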

Other observations

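Of 249 genes of the lists with a row, 9 had an SML FPKM listed at 0 although fragments were counted there, and 0 had this in HFD control. All 9 lay below the filter on mean FPKM. They include C3ar1, the receptor of C3a, with 42 fragments in HFD control and 34 in SML (ratio 1.10, 0.679 to 1.77) and Tlr4, the receptor that CD14 serves, with 31 and 24 (ratio 1.05, 0.591 to 1.85). For Tlr4 the FPKM columns read 0.64 and 0, so the deposited FPKM and the scaled counts give different pictures of low macrophage genes. None of the 9 macrophage marker and C1q genes had a listed 0.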
